A study of Mus musculus with 35 samples.

Results

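Fatty acid oxidation and lipid handling were followed through 39 genes of the 55487 in each raw count table of a mouse heart study of IAMP, a micropeptide encoded by 4930523C07Rik. The 39 genes were chosen by symbol, not by a measured value, and cover the carnitine shuttle, the enzymes of mitochondrial β-oxidation, electron transfer, fatty acid uptake and activation, lipid droplets, uncoupling proteins, thioesterases and their transcriptional regulators. All 39 were above 0 in at least 1 library of each table. The series holds 35 RNA-Seq libraries, 8 of whole hearts and 27 of cardiac fibroblasts (CFs).

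The hearts came from 8-week-old C57BL/6 mice kept without injury, 4 heterozygous (Het) and 4 homozygous (KO) for a CRISPR-Cas9 frameshift in the small open reading frame of IAMP. The Het controls therefore carry 1 mutant allele themselves, and the line rests on 1 guide RNA. The CFs were primary cells of adult mouse ventricles, plated on collagen and passaged. They received a control siRNA (si-NC) or 1 of 2 siRNAs against IAMP (si-IAMP-1 and si-IAMP-2), in 3 libraries each. CFs of 1 table had no stimulus, those of another were given IL17, and those of the third TGF-β. The labels state 24 h of siRNA followed by 24 h of IL17, and the times for the other cells are not given in the sources used here. No source says that the 3 libraries of a group are separate cultures, so the p-values measure the spread between these libraries, which may be technical.

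A CF library held 104139670 to 119232309 estimated counts and a heart 23497027 to 23857313 counts. Levels are given as CPM, the counts scaled to a fixed library size, after TMM normalisation, with all CF libraries scaled together and the hearts apart. Genes with an adjusted p no higher than 0.05 in edgeR's quasi-likelihood test, adjusted over all genes tested, count as called. The siRNA target was lowered in CFs, from 22.0, 22.7 and 25.7 CPM with si-NC to 2.52, 3.51 and 2.98 CPM with si-IAMP-1 and 1.77, 1.87 and 1.89 CPM with si-IAMP-2 in untreated cells. In hearts 4930523C07Rik was at 15.9, 16.5, 18.8 and 17.0 CPM in Het and 15.4, 17.3, 15.2 and 16.3 CPM in KO. A frameshift need not lower the transcript, so this level does not check the genotype labels.

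Long-chain fatty acids enter a cell with the help of carriers such as Cd36, are activated to acyl-CoA by the acyl-CoA synthetases, and cross the mitochondrial membranes as carnitine esters. Inside, the β-oxidation spiral removes acetyl units through dehydrogenation, hydration, a further dehydrogenation and thiolysis, and electron transfer flavoprotein carries electrons on to the respiratory chain. The adult heart muscle draws most of its energy from this pathway, and fibroblasts rely on it far less. The nuclear receptors PPARα, PPARδ and PPARγ, with the coactivators PGC-1α and PGC-1β, switch on many of these genes.

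PPARs bind DNA as partners of retinoid X receptors at paired copies of the half-site AGGTCA, so that half-site was looked for on both strands from 250 bases before to 50 bases after each RefSeq gene start (GRCm38.p6). A promoter was found for 33 of the 39 genes, and not for Cpt1b, Acaa2, Decr1, Fabp4, Lpl and Ppargc1b. The half-site lay in the promoters of 9 of the 33 genes (27.3%), against 18.1% of the 27025 genes with a promoter. The paired form, a copy of AGGTCA on each side of 1 free base, contains the half-site and was in none of the 33 and in 13 of all genes (0.0481%). With the T of each copy also free, it was in 122 of all genes (0.451%) and in none of the 33. The half-sites of the regulator Pparg and of Cpt1a, Cd36 and Plin2, whose levels are described further on, are printed with 10 bases on each side, 5′ to 3′ on the strand that reads the motif, which is in capitals. The start given for a motif is its base farthest upstream on the strand of the gene, also where the motif is read on the other strand. A match in letters is a description and not a binding site.
Pparg, first promoter, chr6:115361106-115361131, plus strand, motif starting at -28 from the gene start: ccgccgcctcAGGTCAgagtcgcccc
Pparg, second promoter, chr6:115362330-115362355, plus strand, motif starting at -9: ggacgcgaggAGGTCAagaaggggcc
Cpt1a, chr19:3323197-3323222, minus strand, motif starting at -94: tgcggggaggAGGTCAgtaaggaaac
Cd36, chr5:17836109-17836134, plus strand, motif starting at -228: tgaaaatctcAGGTCAtaaagtgcag
Plin2, chr4:86670262-86670287, plus strand, motif starting at -218: tgtctgacttAGGTCAggggtcctga

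Whole hearts were compared first, to ask whether loss of the micropeptide altered the oxidation genes of the unstressed heart. All 39 genes passed the filter on low counts, and none was called in KO against Het (0.0% of the 16675 genes tested were called). The differences ran from -0.18 to 0.18 on the log2 scale, with a median of 0.01 against 0.00 for all genes. The 95% intervals of all 39 genes lay within 1.5-fold in either direction, and their median reach was 0.14 (log2) to either side. Without adjustment, 601 genes (3.6%) and 3 of the 39 had a p under 0.05, and DESeq2 called 1 of the 39, Plin4. In bulk tissue, fewer cells of a type and less RNA per cell cannot be told apart.

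The gene of the 39 with the lowest p in hearts was Plin4 (chr17:56100591-56109803), a coat protein of lipid droplets. It was at 284, 269, 294 and 279 CPM in Het and at 313, 330, 314 and 320 CPM in KO, so that every KO heart lay above every Het heart. The difference was 0.18 ± 0.04 (SE, log2; 95% interval 0.09 to 0.27; adjusted p = 0.999967, edgeR's quasi-likelihood test), and DESeq2 gave an adjusted p of 0.0289. Cd36, the fatty acid carrier of the muscle cell membrane, was also without overlap, at 922, 973, 965 and 874 CPM in Het and 985, 1028, 988 and 1035 CPM in KO (0.11, adjusted p = 0.999967 by edgeR). These were the 2 of 39 genes whose groups did not overlap, both with KO above, where 2.37% of all genes tested did not overlap in either direction. Markers of fat cells, in which Plin4 and Cd36 are abundant, were low in all hearts, with 7 markers summing to 1.48 to 6.83 CPM in Het and 3.80 to 7.82 CPM in KO. The 4 of them that passed the filter were higher in KO by value and not called (Adipoq 1.53, Plin1 0.76, Cfd 0.28 and Cidec 0.25, adjusted p = 0.999967 by edgeR). Lep was at 0 in all KO hearts, and the part of these markers in the values of Plin4 and Cd36 was not tested.

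Plin2, the droplet coat protein found in most cells, was at 31.4, 30.3, 27 and 29.4 CPM in Het and 25.6, 25.0, 28.2 and 26.3 CPM in KO (-0.17, adjusted p = 0.999967 by edgeR). One KO heart lay inside the Het range. Ppargc1b, which encodes the coactivator PGC-1β, was at 10.1, 9.75, 9.00 and 9.42 CPM in Het against 6.87, 7.73, 9.33 and 9.92 CPM in KO (-0.18, adjusted p = 0.999967 by edgeR), with 2 KO hearts in the Het range. Pnpla2, the triglyceride lipase that opens lipid droplets, overlapped at 614, 633, 597 and 556 CPM in Het and 627, 589, 667 and 653 CPM in KO.

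The enzymes themselves showed how close the hearts were to each other. Hadha, the α subunit of the mitochondrial trifunctional protein, was at 1388, 1455, 1368 and 1301 CPM in Het and 1350, 1356, 1463 and 1402 CPM in KO. Acadvl, the dehydrogenase for very long chains, was at 774, 799, 751 and 726 CPM in Het and 747, 723, 788 and 776 CPM in KO. In both genes each group spanned most of the other. Cpt1b, the muscle form of the entry enzyme of the carnitine shuttle, spread more widely, with 559, 572, 418 and 524 CPM in Het and 519, 500, 567 and 553 CPM in KO. Decr1, the reductase needed for unsaturated acids, lay at 254, 282, 262 and 232 CPM in Het and 263, 248, 265 and 269 CPM in KO. Etfb, the β subunit of electron transfer flavoprotein, was at 605, 538, 572 and 522 CPM in Het and 510, 520, 600 and 527 CPM in KO. All of these ranges overlapped. Lpl, the lipase that frees fatty acids from circulating triglycerides, was at 2778, 3200, 2788 and 2531 CPM in Het and 3131, 2885, 2853 and 2966 CPM in KO.

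Among regulators, Ppargc1a (PGC-1α) varied widely within both genotypes, at 89.9, 133, 124 and 137 CPM in Het and 122, 120, 93.4 and 174 CPM in KO. Ucp2, a mitochondrial carrier of the uncoupling protein family, spread from 91.2 to 139 CPM in Het and from 115 to 153 CPM in KO. Over the 8 hearts the coefficient of variation had a median of 6.72% over the 39 genes, and was 21.3% for Ppargc1a, 24.8% for Ucp3 and 19.9% for Ppara. The PPAR target Pdk4, the kinase that holds back glucose oxidation, overlapped as well and was at 262, 343, 390 and 261 CPM in Het and 232, 302, 365 and 483 CPM in KO. The summed CPM of 12 cardiomyocyte markers was 70530 to 76050 in Het and 70140 to 73760 in KO.

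**Figure D1:**
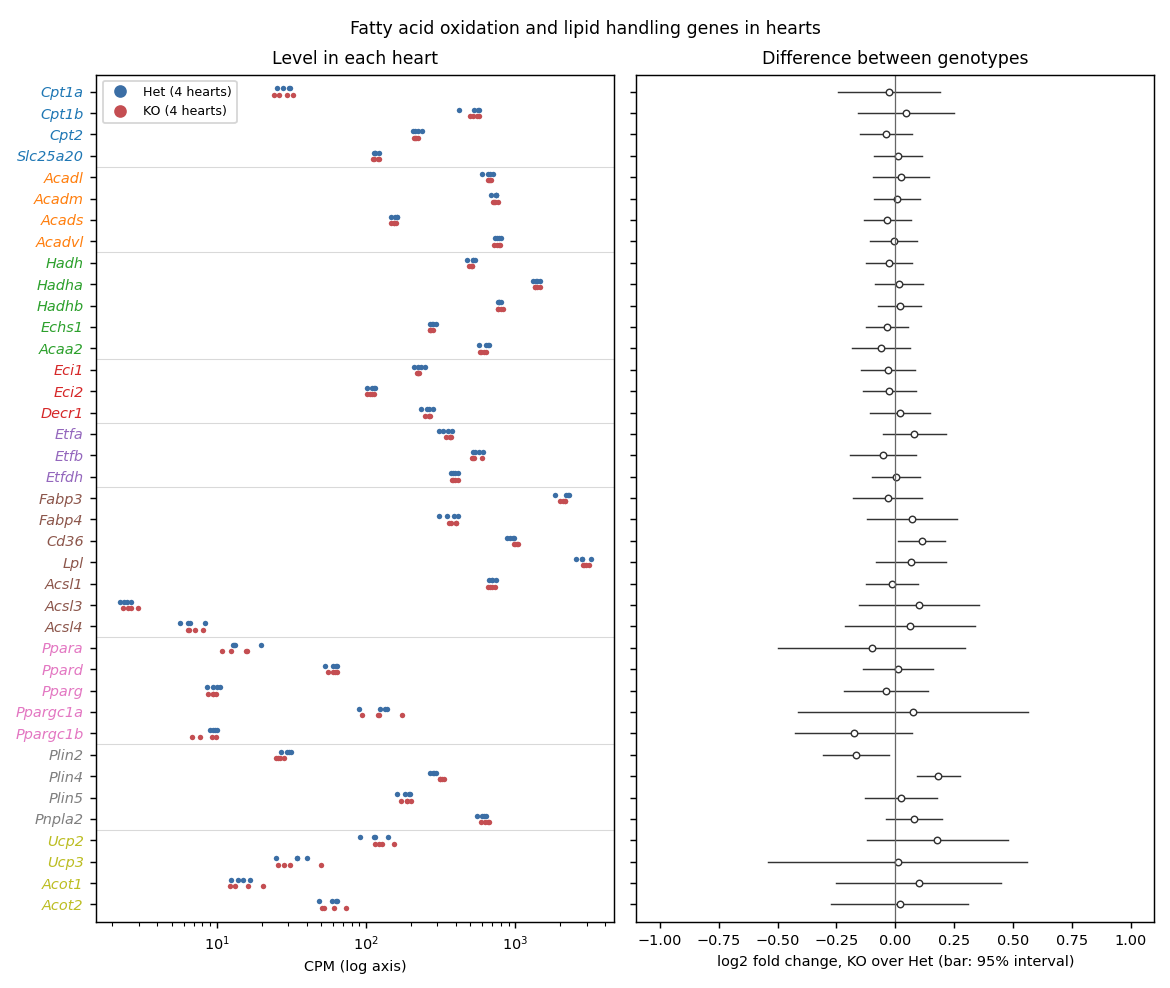
Left, the CPM of each gene in the 4 Het (blue) and 4 KO (red) hearts on a log axis. Right, the log2 fold change of KO over Het with its 95% interval. The points of both genotypes lie over each other for nearly every gene, and the intervals stay within 1.5-fold.

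The CFs were a different setting for these genes. Cardiomyocyte markers summed to 304 to 788 CPM in CFs, nearly all of it Atp2a2 and Tnnt2, and adipocyte markers to at most 1.96 CPM in any CF library. The 10 fibroblast markers summed to 13560 to 13900 CPM in untreated si-NC cells. With no test, since the tables were normalised apart, 34 of the 39 genes had a higher CPM in Het hearts than in untreated si-NC CFs, 22 of them at least 10-fold, and the median ratio was 10.9. Cpt1b was 709-fold, Fabp3 (the heart fatty acid binding protein) 263-fold, Cd36 257-fold and Ppargc1a 232-fold higher in hearts. The 5 genes that were higher in CFs were Acsl4, the synthetase that prefers arachidonic acid (24.2-fold), Acsl3 (8.04-fold), Cpt1a, the carnitine palmitoyltransferase of liver and most other tissues (6.76-fold), Plin2 (3.17-fold) and Pparg (1.18-fold). Genes of the mitochondrial genome took 24.0 to 27.6% of the heart counts and 2.27 to 2.63% of the untreated CF counts. This lowers the CPM of all other genes in hearts, so the direction of a small ratio such as that of Pparg is uncertain.

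Per kilobase of exon, which allows levels to be compared between genes, Fabp3, Etfb and Acaa2 were the highest of the 39 in hearts, at 2576, 472 and 408 CPM per kb. In untreated si-NC CFs the order began with Etfb, Etfa, Acadl and Acsl4, at 43.8, 40.5, 31.0 and 30.3 CPM per kb. Lpl, Plin2 and Cpt1a followed at 27.5, 26.6 and 25.4 CPM per kb. Ucp3 and Plin5, proteins of oxidative muscle, closed the order in CFs at 0.01 and 0.02 CPM per kb, and both were within the floor of 3 read pairs in these libraries.

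**Figure D2:**
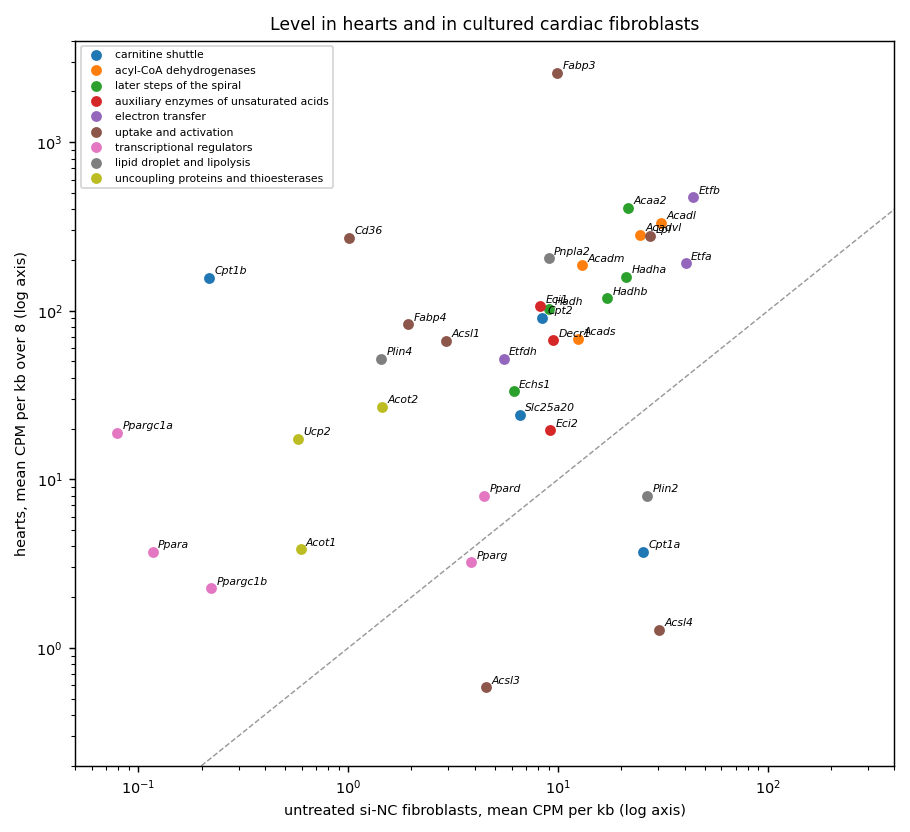
The mean CPM per kb of each gene in untreated si-NC CFs (x axis) and over the 8 hearts (y axis), both on log axes, with 1 point a gene coloured by role. Most genes lie above the line of equal values, and Acsl4, Acsl3, Cpt1a, Plin2 and Pparg lie below it. Plin5 and Ucp3 are not drawn.

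Knockdown in untreated CFs was examined next, with each siRNA against si-NC and the 2 siRNAs against each other. The 39 genes took 0.19 to 0.199% of all counts with si-NC, 0.179 to 0.183% with si-IAMP-1 and 0.226 to 0.229% with si-IAMP-2. On this scale neither siRNA group overlapped the controls, and they lay on opposite sides of them. These shares, here and below, are of library totals before TMM scaling, and abundant genes such as Lpl weigh most in them. The TMM factors were 1.029 to 1.046 with si-NC and 0.9612 to 0.9715 with si-IAMP-1, so the place of si-IAMP-1 against si-NC depends on the scaling. With si-IAMP-1, 6 of the 37 genes tested were higher and 14 lower, where 19.5% of all genes tested were called higher and 20.4% lower (39.9% together). With scaling by library totals alone the split was 3 higher and 23 lower. With si-IAMP-2, 16 were higher and 8 lower, against 24.4% and 25.0% of all genes (49.3% together). The 3 libraries of a group did not overlap with si-NC in 19 of 37 genes with si-IAMP-1 (49.5% of all genes) and in 26 with si-IAMP-2 (56.8%). Both comparisons share the si-NC libraries. Tested directly, 23 of 37 genes were higher and 4 lower with si-IAMP-2 than with si-IAMP-1, against 22.7% and 22.8% of all genes (45.5% together), and the median of the 37 was 0.25 (log2) against -0.02 for all genes.

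Under IL17 the counts were alike in kind. With si-IAMP-1, 4 of 38 genes were higher and 15 lower (20.3% and 21.9% of all genes, 42.3% together), and 2 and 24 with scaling by library totals, which moved the median of all genes by -0.11 (log2). With si-IAMP-2, 19 were higher and 4 lower (25.0% and 25.6%, 50.6% together), and 15 and 7 with library totals. Directly compared, si-IAMP-2 was above si-IAMP-1 in 24 genes and below in 4 (23.1% and 23.1%, 46.2% together), the latter 2 with DESeq2, without the filter on low counts or without si-IAMP-1 replicate 1. The share of all counts was 0.186 to 0.187% with si-NC, 0.166 to 0.169% with si-IAMP-1 and 0.225 to 0.231% with si-IAMP-2.

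Under TGF-β the calls were fewer. With si-IAMP-1, 6 of 38 genes were higher and 7 lower (11.7% and 11.4% of all genes, 23.1% together), and with si-IAMP-2 5 were higher and 8 lower (15.1% and 14.8%, 29.9% together). The 7 lower with si-IAMP-1 came to 3 without the filter on low counts, or without si-IAMP-1 replicate 1 or 3 or si-NC replicate 1, to 4 without si-IAMP-1 replicate 2, and to 10 with library totals. The 8 lower with si-IAMP-2 came to 5 without si-NC replicate 1 or 3. Directly compared, 5 were higher and 5 lower with si-IAMP-2 (24.0% of all genes called), or 3 and 5 with library totals, and the 5 higher also came to 3 without si-IAMP-1 replicate 1 or 2 or si-IAMP-2 replicate 2 or 3. The share of all counts was 0.167 to 0.168% with si-NC, 0.172 to 0.175% with si-IAMP-1 and 0.172 to 0.173% with si-IAMP-2. Past the fold thresholds, 2-fold in untreated cells and 1.5-fold under IL17 and TGF-β, the 2 siRNAs gave 1 and 4 of the genes in untreated cells (4.76% and 10.7% of all genes), 2 and 8 under IL17 (13.5% and 21.7%) and 0 and 1 under TGF-β (4.36% and 7.51%). None was past the threshold in the same direction with both siRNAs in any table. The sum of the fibroblast markers also differed between the groups in untreated cells. It was 18900 to 19730 CPM with si-IAMP-1 and 17510 to 17810 CPM with si-IAMP-2. The single markers did not move together. Mean Col3a1 was at 2928 CPM with si-NC, 5741 CPM with si-IAMP-1 and 8128.5 CPM with si-IAMP-2. Thy1 was at 286, 149 and 141 CPM in that order, Col1a1 at 3744, 5274 and 3343, and Postn at 1616, 1598 and 902. The part of these markers in the results above was not tested.

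**Figure D3:**
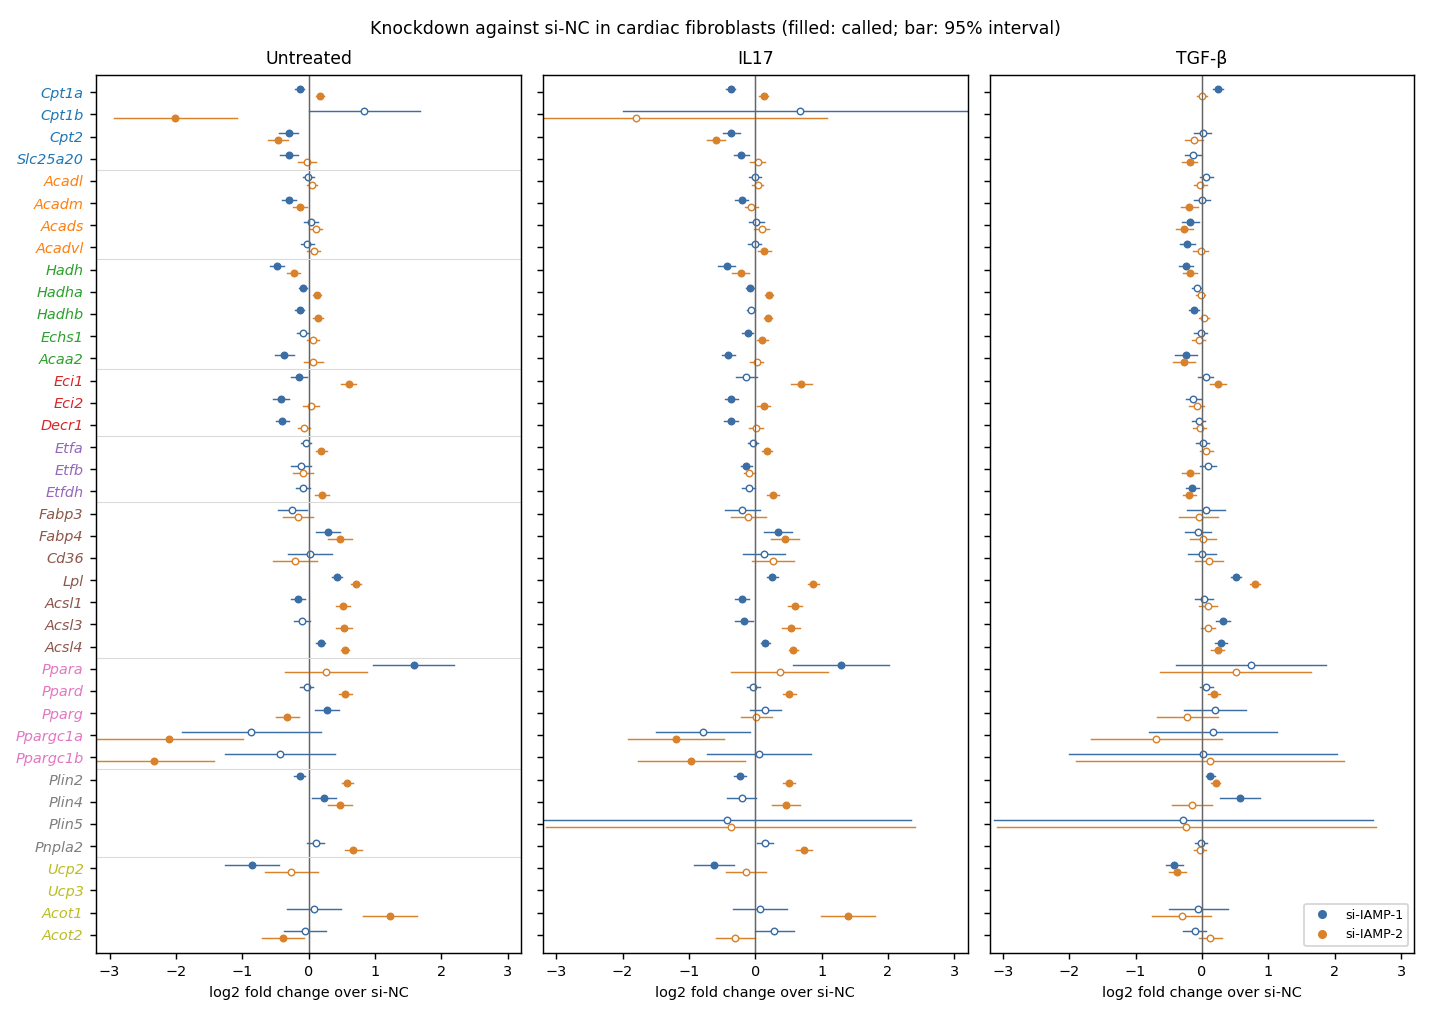
The log2 fold change over si-NC of each gene with si-IAMP-1 (blue) and si-IAMP-2 (orange) in untreated, IL17 and TGF-β CFs, with 95% intervals. Filled points were called. The orange points lie to the right of the blue for most genes in the first and second panels and lie close to them in the third. Cpt1b under TGF-β is not drawn, and Ucp3 in all panels and Plin5 in untreated cells were not tested.

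Among uptake and activation genes, 5 of 7 were called higher with si-IAMP-2 in untreated cells and 5 under IL17, where 24.4% and 25.0% of all genes were. Lpl (chr8:68880491-68907448) was at 287, 283 and 294 CPM with si-NC, 391, 407 and 368 CPM with si-IAMP-1 and 461, 492 and 479 CPM with si-IAMP-2 in untreated cells. No group overlapped another. The rises over si-NC were 0.43 ± 0.04 and 0.71 ± 0.04 (SE, log2; adjusted p = 6.91e-08 and 5.51e-11, edgeR's quasi-likelihood test). Under IL17 Lpl rose by 0.25 with si-IAMP-1 and 0.87 with si-IAMP-2, and under TGF-β by 0.51 and 0.80, each called. The direct difference between the siRNAs was 0.28, 0.62 and 0.29 in the 3 tables, each called.

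Acsl1, the main synthetase that feeds oxidation in muscle and fat, separated the siRNAs. It was at 31.5, 29.9 and 30.9 CPM with si-NC, 27, 28.0 and 27.9 CPM with si-IAMP-1 and 43.4, 48.2 and 42.1 CPM with si-IAMP-2 in untreated cells. It fell slightly with si-IAMP-1 (-0.16, adjusted p = 0.0207) and rose with si-IAMP-2 (0.51, adjusted p = 2.66e-07), and the values under IL17 were -0.20 and 0.59, both called by edgeR. Under TGF-β neither siRNA gave a call, at 0.02 and 0.09. Acsl3, which works at lipid droplets and the endoplasmic reticulum, had 19.3, 20.2 and 19.7 CPM with si-NC, 19.7, 18.0 and 17.6 CPM with si-IAMP-1 and 28.3, 28.9 and 29.7 CPM with si-IAMP-2. Its rise with si-IAMP-2 was 0.53 in untreated and 0.54 in IL17 cells, and under TGF-β it was higher with si-IAMP-1 (0.32, adjusted p = 0.000109 by edgeR) and not called with si-IAMP-2 (0.08). Acsl3 overlaps Utp14b on the same strand, so its reads may be shared.

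Acsl4 rose with each siRNA in each table. In untreated cells it went from 166, 165 and 161 CPM with si-NC to 183, 183 and 193 CPM with si-IAMP-1 (0.18, adjusted p = 0.000112) and 239, 247 and 242 CPM with si-IAMP-2 (0.55, adjusted p = 1.11e-10, edgeR). The changes were 0.15 and 0.57 under IL17 and 0.29 and 0.23 under TGF-β. Fabp4, a fatty acid binding protein of fat cells and capillaries, was higher with si-IAMP-2 in untreated and IL17 cells (0.47 and 0.44) and with si-IAMP-1 (0.29 and 0.34), at levels of 7.95 to 13.4 CPM in these 2 tables. Cd36 stayed between 2.70 and 4.35 CPM in untreated cells and was not called with either siRNA in any table. The 95% interval for si-IAMP-2 in untreated cells ran from -0.54 to 0.12 (log2). Fabp3 was likewise not called.

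In the carnitine shuttle, Cpt1a went opposite ways with the siRNAs. It was at 199, 192 and 192 CPM with si-NC, 179, 174 and 179 CPM with si-IAMP-1 and 223, 227 and 215 CPM with si-IAMP-2 in untreated cells, without overlap between groups. The changes were -0.14 and 0.17 in untreated and -0.37 and 0.12 in IL17 cells, all called, and under TGF-β it was called with si-IAMP-1 (0.24) and not with si-IAMP-2 (adjusted p = 0.992 by edgeR). Cpt2, the enzyme that reforms acyl-CoA inside the mitochondrion, was instead lower with each siRNA, from 19.9, 19.3 and 21.1 CPM with si-NC to 16.8, 16.6 and 15.7 CPM with si-IAMP-1 and 16.1, 14.5 and 13.6 CPM with si-IAMP-2. These changes were -0.30 and -0.47 in untreated and -0.36 and -0.59 in IL17 cells, and neither was called under TGF-β (0.01 and -0.12).

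Slc25a20, the carnitine-acylcarnitine carrier of the inner membrane, was lower with si-IAMP-1 in untreated and IL17 cells (-0.29 and -0.21) and was not called with si-IAMP-2 there. Cpt1b was close to the detection floor in CFs, with 0.554, 0.325 and 1.32 CPM with si-NC and 0.121, 0.212 and 0.218 CPM with si-IAMP-2 in untreated cells (-2.01, adjusted p = 0.00091 by edgeR). Under IL17 the si-IAMP-2 libraries were at 0.526, 0.0701 and 0 CPM, and Cpt1b was not called there or under TGF-β. It lies within a readthrough gene on the same strand, which may share its reads.

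The acyl-CoA dehydrogenases open each turn of the spiral, and their calls differed between genes and tables. Acadl, the long-chain enzyme, was at 62.2, 60.5 and 63.8 CPM with si-NC and between 60.6 and 66.2 CPM with either siRNA in untreated cells, and no siRNA comparison of any table called it. With si-IAMP-2 in untreated cells its 95% interval ran from -0.03 to 0.13 (log2). Acadm, the medium-chain enzyme, was lower with si-IAMP-1 in untreated cells at 44.2, 41.6 and 39 CPM against 49.6, 51.3 and 52.0 CPM (-0.30, adjusted p = 8.16e-05 by edgeR), and under IL17 the difference with si-IAMP-1 was -0.21. With si-IAMP-2 Acadm was also called lower in untreated cells, at 46.1, 48.4 and 47.1 CPM. Acads and Acadvl, for short and very long chains, were not called with either siRNA in untreated cells. Under TGF-β Acads was lower with each siRNA (-0.18 and -0.27) and Acadvl with si-IAMP-1 (-0.22).

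In the later steps of the spiral, all 5 genes were higher with si-IAMP-2 than with si-IAMP-1 in untreated and in IL17 cells, and 1 of 5 under TGF-β, where 22.7%, 23.1% and 12.0% of all genes were called higher. Their summed level was 413 to 437 CPM with si-NC, 382 to 385 CPM with si-IAMP-1 and 452 to 471 CPM with si-IAMP-2 in untreated cells. Under TGF-β the sums were 368 to 386, 351 to 356 and 364 to 374 CPM. Hadha was at 187, 179 and 187 CPM with si-NC, 172, 174 and 176 CPM with si-IAMP-1 and 200, 208 and 205 CPM with si-IAMP-2 (-0.09 and 0.13 over si-NC, 0.22 between the siRNAs with adjusted p = 9.22e-06 by edgeR). Hadhb, the thiolase subunit of the same complex, gave -0.14, 0.14 and 0.28.

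Hadh, the short-chain hydroxyacyl-CoA dehydrogenase, was lower with each siRNA in each table. In untreated cells it was at 46.5, 44.3 and 44.4 CPM with si-NC, 33.4, 32.8 and 31.3 CPM with si-IAMP-1 and 40.5, 38.3 and 38.2 CPM with si-IAMP-2, for changes of -0.48 and -0.23 (adjusted p = 3.67e-07 and 0.000574 by edgeR). The changes were -0.43 and -0.22 under IL17 and -0.24 and -0.18 under TGF-β. Acaa2, the last enzyme of the spiral for shorter chains, fell with si-IAMP-1 from 30.4, 31.1 and 36.5 CPM to 25.2, 26.0 and 25.2 CPM (-0.37), and with si-IAMP-2 it was at 34.7, 37.3 and 32.1 CPM (0.07, not called). Under TGF-β Acaa2 was lower with each siRNA (-0.24 and -0.28). The call with si-IAMP-2 was lost without 1 of 3 libraries, si-NC replicate 1 or 3 or si-IAMP-2 replicate 2. Echs1, the hydratase, differed by at most 0.22 in any siRNA comparison.

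The 3 auxiliary enzymes of unsaturated acids were all lower with si-IAMP-1 than with si-NC in untreated cells, and all higher with si-IAMP-2 than with si-IAMP-1, where 20.4% of all genes were called lower and 22.7% higher. Eci1 (chr17:24426641-24439348), the main enoyl-CoA isomerase, was at 17.4, 17.1 and 18.0 CPM with si-NC, 16.3, 16.1 and 15.0 CPM with si-IAMP-1 and 26.6, 27.2 and 26.7 CPM with si-IAMP-2. Its rise with si-IAMP-2 was 0.60 in untreated, 0.69 in IL17 and 0.24 in TGF-β cells, and the direct difference between siRNAs was 0.75, 0.83 and 0.19, each called by edgeR. Eci2, its peroxisomal and mitochondrial relative, was lower with si-IAMP-1 in untreated and IL17 cells (-0.41 and -0.37), and so was Decr1 (-0.40 and -0.36). Neither was called under TGF-β, with values of -0.13 and -0.05.

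In electron transfer, Etfa, the α subunit of the flavoprotein, and Etfdh, its dehydrogenase in the inner membrane, rose with si-IAMP-2 in untreated cells. Etfa went from 74.7, 71.7 and 76.8 CPM to 83.7, 88.2 and 86.6 CPM (0.19, adjusted p = 0.000431 by edgeR) and Etfdh from 40.0, 40.6 and 43.2 CPM to 49.4, 48.6 and 46.6 CPM (0.21, adjusted p = 0.00208 by edgeR) in untreated cells. Neither was called with si-IAMP-1 there. Under TGF-β Etfdh was called lower with each siRNA. It was at 46.9, 47.1 and 44.4 CPM with si-NC, 41.5, 42.8 and 40.8 CPM with si-IAMP-1 and 39.4, 41.3 and 40.3 CPM with si-IAMP-2. Etfb, which overlaps the gene model Etfbl, was not called in untreated cells.

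The lipid droplet genes Plin2 and Pnpla2 separated the siRNAs as well. Plin2 was at 93.8, 90.1 and 96.6 CPM with si-NC, 85.2, 83.1 and 88.3 CPM with si-IAMP-1 and 141, 149 and 135 CPM with si-IAMP-2 in untreated cells. It was lower with si-IAMP-1 (-0.13, adjusted p = 0.0107) and higher with si-IAMP-2 (0.58, adjusted p = 1.49e-09, edgeR), with -0.23 and 0.51 under IL17. Under TGF-β Plin2 was higher with each siRNA (0.13 and 0.20). Pnpla2 rose only with si-IAMP-2 of the 2 siRNAs, from 27, 27.2 and 27.5 CPM to 46.7, 45.5 and 39.9 CPM, and was at 27.3, 29.8 and 31.0 CPM with si-IAMP-1. The direct difference was 0.57 in untreated cells (adjusted p = 7.54e-07), 0.59 under IL17 (adjusted p = 1.87e-07) and -0.02 under TGF-β (adjusted p = 0.821, all by edgeR).

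Plin4 was at 7.86, 9.07 and 7.91 CPM with si-NC, 9.69, 10.5 and 9.02 CPM with si-IAMP-1 and 11.6, 11.5 and 11.8 CPM with si-IAMP-2 in untreated cells. The rises were 0.23 and 0.47, both called by edgeR. Under IL17 it was higher with si-IAMP-2 (0.46), and under TGF-β it was higher with si-IAMP-1 (0.57, adjusted p = 0.00689), with a difference of -0.71 between si-IAMP-2 and si-IAMP-1 (adjusted p = 0.0012 by edgeR). Plin5 was at or under the floor of 3 read pairs in these comparisons and has no fold.

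Acot1 (chr12:84009490-84018371), a cytosolic thioesterase that releases fatty acids from acyl-CoA, had the largest rise of the 39 genes with si-IAMP-2 in untreated and in IL17 cells. It was at 2.2, 2.25 and 2.52 CPM with si-NC, 1.80, 2.13 and 3.49 CPM with si-IAMP-1 and 5.23, 6.03 and 5.22 CPM with si-IAMP-2 in untreated cells. That is 1.22 ± 0.19 (SE, log2; 2.33-fold, adjusted p = 4.26e-05, edgeR), and under IL17 it was 1.40 ± 0.19 (2.63-fold, adjusted p = 8.17e-06). Under TGF-β all groups lay between 1.1 and 1.86 CPM, and the change was -0.31 (adjusted p = 0.317). Acot2, its mitochondrial neighbour at chr12:83987861-83993873, is nearly identical in sequence, so reads may be split between the paralogs. It went the other way, at 2.79, 3.38 and 3.38 CPM with si-NC and 2.37, 2.80 and 2.23 CPM with si-IAMP-2 (-0.39, adjusted p = 0.0402).

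Ucp2 (chr7:100493337-100502020) was lower with si-IAMP-1 in each table, with changes of -0.86 ± 0.19 in untreated cells (adjusted p = 0.00156), -0.62 under IL17 and -0.42 under TGF-β. The untreated values were 3.80, 3.30 and 4.97 CPM with si-NC and 2.12, 1.69 and 2.89 CPM with si-IAMP-1. With si-IAMP-2 it was called lower under TGF-β (-0.37) and not in untreated (-0.26) or IL17 cells (-0.14). Ucp3 did not pass the filter in any CF table.

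The transcriptional regulators split. Ppard (PPARδ), the PPAR found in most tissues, was at 33.8, 32.1 and 34.2 CPM with si-NC, 32.5, 33.0 and 33.0 CPM with si-IAMP-1 and 48.8, 52.0 and 48.0 CPM with si-IAMP-2 in untreated cells. Its rise with si-IAMP-2 was 0.55 in untreated, 0.51 in IL17 and 0.18 in TGF-β cells (adjusted p = 2.18e-08, 7.26e-08 and 0.00481, edgeR), and with si-IAMP-1 no table called it. Pparg (PPARγ, chr6:115360951-115490399), the master regulator of fat cells, moved oppositely, at 11.5, 11.4 and 11.2 CPM with si-NC, 13.5, 13.3 and 14.7 CPM with si-IAMP-1 and 9.64, 10.0 and 8.08 CPM with si-IAMP-2. The changes were 0.28 (adjusted p = 0.0123, not called with library totals or without si-IAMP-1 replicate 3) and -0.32 (adjusted p = 0.00374), and the siRNAs differed by -0.60 (adjusted p = 1.28e-05). Under IL17 and TGF-β Pparg was not called with either siRNA.

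Ppara (PPARα) was scarce. It was at 0.637, 0.325 and 0.385 CPM with si-NC and 1.27, 1.38 and 1.39 CPM with si-IAMP-1 in untreated cells (1.58 ± 0.29, adjusted p = 0.000283), and 0.501, 0.662 and 0.470 CPM with si-IAMP-2 (0.26, adjusted p = 0.519). Under IL17 the change with si-IAMP-1 was 1.29 (adjusted p = 0.00537), and under TGF-β 0.73 (adjusted p = 0.395). Both coactivators were low as well and fell with si-IAMP-2. Ppargc1a went from 0.488, 0.759 and 0.321 CPM to 0.147, 0.115 and 0.104 CPM in untreated cells, where the libraries with si-IAMP-2 were at the floor, so it was at least 3.33-fold lower (adjusted p = 0.00274). Ppargc1b went from 0.819, 1.00 and 0.842 CPM to 0.104, 0.115 and 0.313 CPM (-2.33 ± 0.43, adjusted p = 0.0002). Under IL17 Ppargc1a changed by -1.20 (adjusted p = 0.00686) and Ppargc1b by -0.97 (adjusted p = 0.0432). The last call was lost with DESeq2, without the filter on low counts, with only the compared groups in the fit and without any of 4 single libraries (si-IAMP-2 replicates 2 and 3, si-NC replicates 1 and 3).

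Of the PPAR target genes, Angptl4, a secreted inhibitor of Lpl, rose with each siRNA in each table. It was at 45.6, 42.8 and 45.9 CPM with si-NC, 99.9, 91.6 and 99.3 CPM with si-IAMP-1 and 131, 131 and 136 CPM with si-IAMP-2 in untreated cells (1.11 ± 0.04 and 1.55 ± 0.04, adjusted p = 3.07e-12 and 2e-14, edgeR). The rises were 0.93 and 0.70 under IL17 and 1.16 and 1.27 under TGF-β. Pdk4 went down, from 18.7, 18.3 and 17.4 CPM with si-NC to 11.8, 10.7 and 10.7 CPM with si-IAMP-1 (-0.72, adjusted p = 2.34e-07) and 16.6, 15.3 and 16.3 CPM with si-IAMP-2 (-0.19, adjusted p = 0.0252, not called without si-IAMP-2 replicate 2 or si-NC replicate 1 or 2). Its changes were -0.98 and -0.44 under IL17 and -0.87 and -1.0 under TGF-β.

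**Figure D4:**
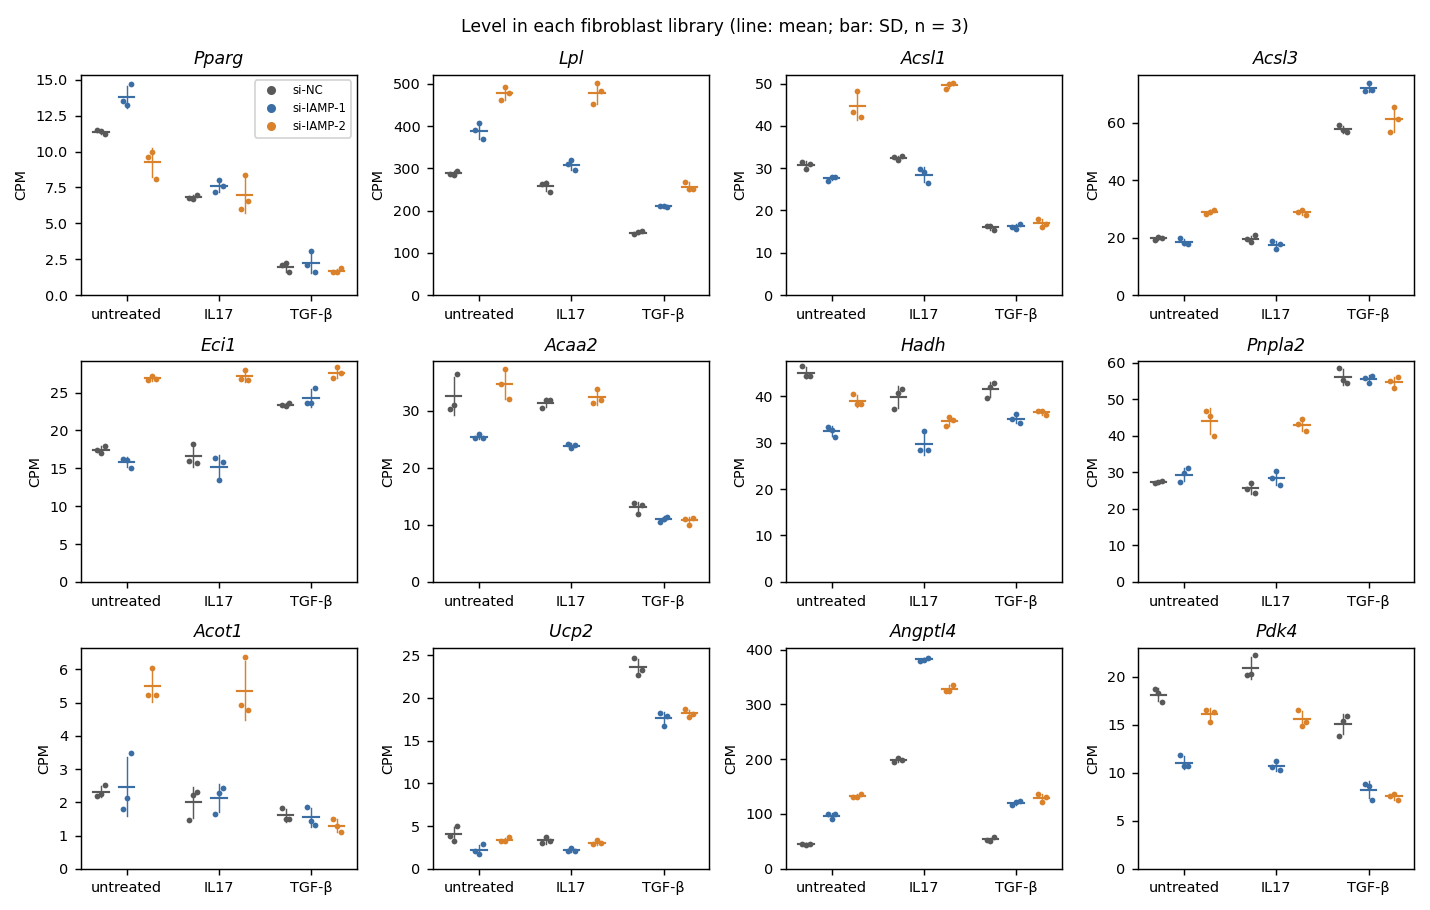
The CPM of 12 genes in each of the 27 CF libraries, by stimulus and siRNA, with the mean as a line and the SD (n = 3) as a bar. In untreated and IL17 cells Acsl1, Acsl3, Eci1, Pnpla2 and Acot1 stand above the other groups with si-IAMP-2 alone. In TGF-β cells Eci1 still does, and Acsl1, Acsl3, Pnpla2 and Acot1 do not.

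The stimuli were compared in si-NC cells across tables, so stimulus and table cannot be told apart. IL17 was followed by few changes. Of 38 genes tested 2 were higher and 7 lower (6.13% and 6.1% of all genes, 12.2% together), and none was both called and past 2-fold, by edgeR (1.46% of all genes). Pparg fell the most, from 11.5, 11.4 and 11.2 CPM to 6.74, 6.67 and 7.00 CPM (-0.74 ± 0.14, adjusted p = 0.000336, edgeR), followed by Plin4 (-0.54), Acadm (-0.35) and Cpt1a (-0.25). Acsl4 rose from 166, 165 and 161 CPM to 221, 208 and 219 CPM (0.40 ± 0.04, adjusted p = 5.81e-10, edgeR) and Ppard by 0.20. Hadh (-0.18), Lpl (-0.16) and Decr1 (-0.13) made up the other calls. Angptl4 went from 45.6, 42.8 and 45.9 CPM to 195, 203 and 199 CPM (2.15 ± 0.04, adjusted p = 2.77e-27, edgeR), while the PPAR target Pdk4 was not called.

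TGF-β was followed by changes in most of the 39 genes, as in most of the genes tested. Of 38 tested 11 were higher and 18 lower (28.0% and 27.5% of all genes, 55.5% together), with a median of -0.15 (log2) against 0.02 for all genes, and 5 were at least 2-fold higher and 3 at least 2-fold lower (20.8% of all genes past 2-fold). Ucp2 rose from 3.80, 3.30 and 4.97 CPM to 24.7, 22.7 and 23.3 CPM (2.55 ± 0.13, adjusted p = 5.3e-17, edgeR). Pparg fell from 11.5, 11.4 and 11.2 CPM to 2.1, 2.24 and 1.58 CPM (-2.53 ± 0.16, adjusted p = 5.2e-15, edgeR). Acot2 rose from 2.79, 3.38 and 3.38 CPM to 10.6, 10.9 and 11.6 CPM (1.80) and Acsl3 from 19.3, 20.2 and 19.7 CPM to 59.0, 57.4 and 56.6 CPM (1.55). In all of these the TGF-β libraries lay far outside the range of the untreated ones.

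Most enzymes of the spiral and its auxiliary enzymes went down or were not called. Acaa2 fell from 30.4, 31.1 and 36.5 CPM to 13.8, 11.9 and 13.5 CPM (-1.32 ± 0.07, adjusted p = 1.33e-17, edgeR), and so did Acadm (-0.65), Acadl (-0.35), Hadhb (-0.23), Eci2 (-0.19), Hadh (-0.12) and Hadha (-0.07), while Eci1 (0.42) and Decr1 (0.15) rose and Acads, Acadvl and Echs1 were not called. Etfa and Etfb were lower (-0.46 and -0.59) and Etfdh higher (0.16). The carnitine enzymes split, with Cpt1a at -0.59 and Cpt2 at 0.66. In uptake and droplets, Lpl fell from 287, 283 and 294 CPM to 144, 149 and 150 CPM (-0.97 ± 0.04, adjusted p = 1.03e-19, edgeR) as did Acsl1 (-0.95), while Cd36 rose from 3.37, 4.35 and 3.19 CPM to 8.19, 7.55 and 6.81 CPM (1.05) and Pnpla2 from 27, 27.2 and 27.5 CPM to 58.6, 55.3 and 54.4 CPM (1.04). Ppargc1b changed by -2.33 ± 0.70 (adjusted p = 0.00582, edgeR), at 0, 0.265 and 0.263 CPM under TGF-β, and Ppard rose by 0.58. Endothelial markers summed to 56.9 to 64.3 CPM in untreated and 108 to 111 CPM in TGF-β si-NC cells, and fibroblast markers to 13560 to 13900 and 17780 to 18600 CPM. Cardiomyocyte markers summed to 653 to 671 and 304 to 327 CPM, nearly all of it Atp2a2 and Tnnt2, while Myh6, Myl3, Mb and Ckm were at or under the floor in both. The fibroblast markers did not move together. From untreated to TGF-β si-NC cells, mean Col1a1 rose from 3744 to 6888 CPM, Col1a2 from 3482 to 4783 and Dcn from 573 to 2233. Pdgfra fell from 351 to 127 CPM, Thy1 from 286 to 102, Ddr2 from 500 to 193 and Tcf21 from 187 to 119. Postn and Col3a1 were also lower, and Lum was near its level (69.2 to 71.3 CPM). The part of all these markers in the changes was not tested.

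**Figure D5:**
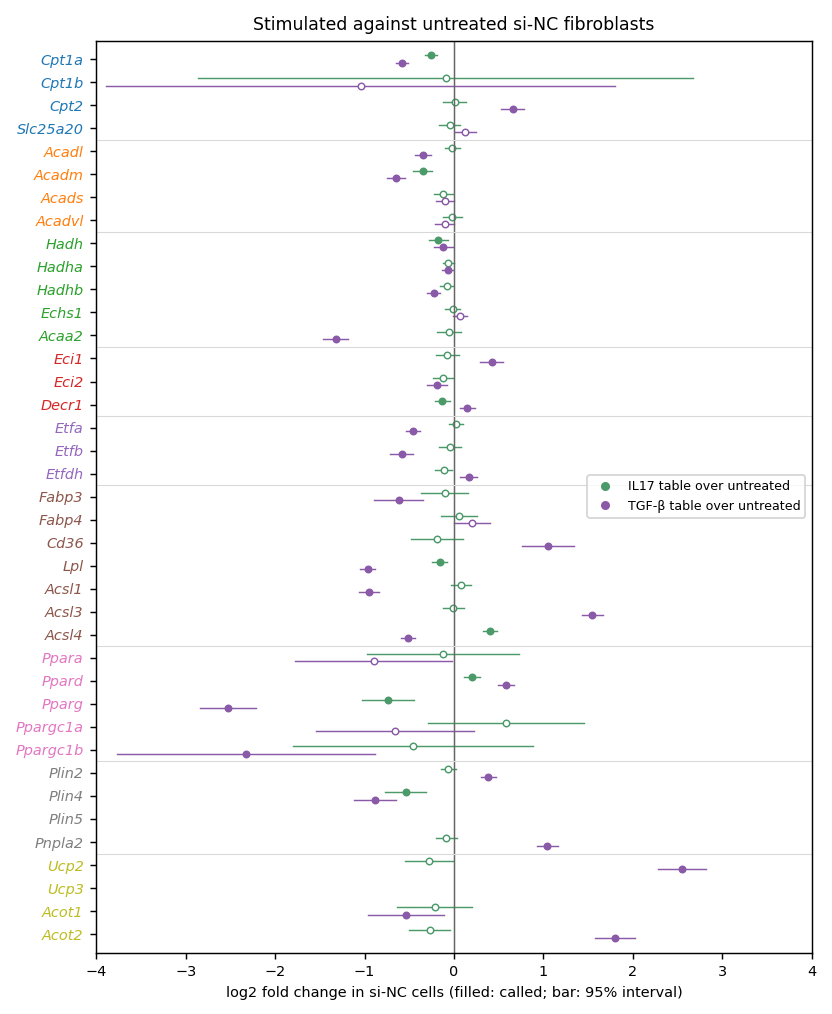
The log2 fold change of IL17 (green) and TGF-β (purple) over untreated si-NC CFs for each gene, with 95% intervals. Of the IL17 points that were called, Pparg, Plin4 and Acsl4 lie farthest from 0, and the TGF-β points reach from -2.53 for Pparg to 2.55 for Ucp2. Plin5 is not drawn.

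Finally, the effect of each siRNA under a stimulus was set against its effect in untreated cells, as a difference of log2 fold changes in 1 fit of all CF libraries. Each effect was taken within its own table. Under IL17, 1 of 38 genes passed an adjusted p of 0.05 with si-IAMP-1, Cpt1a (-0.23, adjusted p = 0.00338, where 1.73% of all genes passed, 0.76% higher and 0.971% lower), and none with si-IAMP-2 (1.64% of all genes passed, 0.568% higher and 1.07% lower). At an unadjusted p under 0.05 there were 4 and 2 of the 38, against 11.1% and 9.41% of all genes. With the further demand of a 2-fold difference, which 0.17% and 0.174% of all genes met, edgeR and DESeq2 both passed none of the 38 under IL17. Under TGF-β, 8 were higher and 2 lower with si-IAMP-1 (9.2% and 10.3% of all genes, 19.5% together), and 2 were higher and 17 lower with si-IAMP-2 (14.2% and 15.3%, 29.5% together), with a median of -0.14 against 0.02 for all genes.

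Acot1 was the only gene of the 39 whose difference was both called and past 2-fold, at -1.55 ± 0.29 for si-IAMP-2 (SE, log2; adjusted p = 8.84e-05, edgeR; 4.95% of all genes passed both limits, and 2.31% for si-IAMP-1). The scarce genes Ppargc1b (2.43 ± 0.99) and Cpt1b (2.42 ± 1.97) had larger values with wide errors, and were not called (adjusted p = 0.0679 and 0.43 by edgeR). Pnpla2 had the lowest p, at -0.73 (adjusted p = 1.02e-08). The next in size among those called lower were Plin4 (-0.64), Fabp4 (-0.48), Acsl3 (-0.47), Acsl1 (-0.44), Etfdh (-0.42), Plin2 (-0.40), Ppard (-0.39), Acads (-0.39) and Eci1 (-0.38). Cpt2 (0.33) and Acot2 (0.49) were the 2 with a higher value under TGF-β. For si-IAMP-1 the called differences upward included Acsl3 (0.42), Cpt1a (0.37) and Decr1 (0.34), and those downward were Acads (-0.22) and Acadvl (-0.20). The siRNA target was itself lowered less under TGF-β, at -2.23 and -2.65 against -2.97 and -3.69 in untreated cells (log2; differences of 0.73 and 1.02, adjusted p = 0.000541 and 3.84e-06), and its part in these differences was not tested.

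The wider pathway was followed through lists of other genes. In hearts none of the 24 other genes of mitochondrial oxidation, of the 17 tested peroxisomal genes or of the 7 tested PPAR targets was called in KO by edgeR, and none of them had an unadjusted p under 0.05. In untreated CFs, 2 of 23 other mitochondrial genes were higher and 10 lower with si-IAMP-1, and 10 higher and 6 lower with si-IAMP-2. For all genes these shares were 19.5% and 20.4%, and 24.4% and 25.0%, and they stand beside the following counts of untreated cells too. Bdh1, the ketone body dehydrogenase, rose by 2.28 and Acadsb, a branched-chain dehydrogenase, by 1.06 with si-IAMP-2, while Mlycd, which breaks down the Cpt1 inhibitor malonyl-CoA, was lower with si-IAMP-1 (-0.51). Under TGF-β without knockdown, 9 of 24 rose and 7 fell (28.0% and 27.5% of all genes), among them Bdh1 (1.39) and Oxct1 (-1.01), the enzyme that admits ketone bodies to oxidation. Of the 18 peroxisomal genes tested, 5 were higher and 4 lower with si-IAMP-1 and 8 higher and 6 lower with si-IAMP-2 in untreated cells. Acot4, a thioesterase for dicarboxylic acids, was higher with each siRNA (1.11 and 0.97). Of 9 PPAR targets tested, 3 were higher and 4 lower with each siRNA, where 39.9% of all genes were called with si-IAMP-1 and 49.3% with si-IAMP-2. Under TGF-β 5 of 11 rose and 3 fell, where 28.0% and 27.5% of all genes did. Vnn1, a pantetheinase, rose by 3.43. Fgf21, a hormone of the fasting response, was at or under the floor in the 3 untreated si-NC libraries and at 3.07 to 3.46 CPM under TGF-β.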

How the data were processed

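Total RNA of CFs and hearts was enriched for poly(A) RNA and sequenced on BGI/MGI instruments. Per the study's methods, the authors trimmed reads with Cutadapt 3.7, checked them with FastQC 0.11.9, aligned them to GRCm38 with HISAT2 2.2.1, derived gene counts with StringTie 2.1.4 and tested them with DESeq2 1.24.0. The strand setting of the counting is not given in the sources used here. They deposited 3 CF tables of estimated counts (whole numbers, often multiples of 6) and 1 heart table of counts, each with 55487 genes. Such counts derive from coverage, so intervals and floors cover counting error only, with a floor of 3 read pairs (18 estimated counts in CFs, 3 counts in hearts). Heart columns name a genotype and no replicate.

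The estimated counts were used whole, as deposited. Genes passed edgeR's filterByExpr, libraries were scaled by TMM, and glmQLFit and glmQLFTest were run within each table (edgeR 4.0.16, R 4.3.3), with stimuli and interactions fitted over the 27 CF libraries, and Benjamini-Hochberg adjustment over all genes tested. Alternatives were DESeq2 1.42.0, library totals, other filters, compared groups alone, a replicate block, division by 6 and each replicate left out. On simulated heart counts the test recovered 72 of 76 genes changed by 1 on the log2 scale and 27 of 52 changed by 1.5-fold. The simulation set the same spread for all genes, not estimated from these hearts, and changed only genes above a minimum mean count. It therefore does not give the power of the test in the real hearts. The members, the other gene lists and the tests were chosen with earlier results of these data known. The genes named are the members, the siRNA target, PPAR targets and the genes of each other list with the largest called change. Coordinates are those of GENCODE vM21 (GRCm38). The result of 1 gene is not reported here.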

Additional observations from a re-analysis of the deposited data

Results flagged for a closer look

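Among the 39 genes and a few PPAR targets, 4 gene and genotype pairs of hearts had 1 sample far from the other 3 by Dixon's test, of 84 pairs looked at, where chance marks about 1 in 20. Slc25a20 in Het had 1 heart at 122 CPM and the others at 114 to 115 CPM (gap over range 0.85). Acadm in Het had 1 heart at 684 CPM and the others at 739 to 740 CPM (0.976), and in the same heart Ppara was at 19.8 CPM against 12.8 to 13.2 CPM in the others (0.949). Angptl4 in KO had 1 heart at 11.2 CPM and the others at 3.89 to 4.74 CPM (0.882). The summed atrial markers of the 4 Het hearts were 179, 186, 569 and 348 CPM in the order in which the values of Plin4 and Cd36 are listed, and the heart with the low Acadm and high Ppara was the last.

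The effect of si-IAMP-2 on Acot1 differed between untreated and TGF-β cells, with a difference of -1.55 (log2) by a test of the interaction. Acot1 was above all si-NC libraries in the 3 untreated si-IAMP-2 libraries and below all of them in the 3 under TGF-β.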

How the results depend on the processing

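Of 247 recomputed counts of called genes, 239 stayed within 1.5 times the value given. DESeq2 called 1 gene in hearts instead of 0. The genes past adjusted p and 2-fold for TGF-β and si-IAMP-2 were 2 instead of 1 with DESeq2, with at least 10 counts in every library and with estimated counts divided by 6. Leaving out 1 replicate gave 15 to 22, 22 to 25 and 25 to 27 genes in untreated cells (si-IAMP-1, si-IAMP-2, and one against the other), 16 to 19, 19 to 24 and 25 to 28 under IL17, 8 to 13, 10 to 13 and 7 to 10 under TGF-β, 7 to 9 and 27 to 31 for IL17 and TGF-β alone, and 1 to 2 for TGF-β and si-IAMP-2. The lowest, 8, came without si-IAMP-1 replicate 3 under TGF-β, and the 2 without untreated si-IAMP-2 replicate 3, si-IAMP-2 replicate 1 or si-NC replicate 3 under TGF-β. The cause was not tested. Of 1409 recomputed log2 fold changes of named genes, 39 lost their call, 1 gained it (Plin4 in hearts, DESeq2) and none turned. The calls lost most often were those of scarce genes, such as Ppargc1b and Ppara under IL17.

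CF replicate numbers did not pair the libraries (median correlation -0.00356 over 108 pairs). With the replicate as a block, 7 genes were higher and 13 lower with si-IAMP-1 and 16 and 7 with si-IAMP-2 in untreated cells, 5 and 15, and 19 and 4 under IL17, and 6 and 6, and 5 and 8 under TGF-β. The hearts were compared without pairing, and their columns carry no replicate numbers. CF depth limits Cpt1b, Ppara, Ppargc1a, Ppargc1b, Plin5, Ucp3 and Esrrg, which were near or under the floor.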

Other observations

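Genes of fatty acid uptake, activation and storage outside the 39 were also followed. In hearts none of the 26 tested was called in KO by edgeR, and none had an unadjusted p under 0.05. In untreated CFs 7 of 24 were higher and 6 lower with si-IAMP-1, and 11 higher and 6 lower with si-IAMP-2, where 19.5% and 20.4%, and 24.4% and 25.0% of all genes were. Slc27a3, an acyl-CoA synthetase of the fatty acid transport protein family, was lower with each siRNA (-1.09 and -1.0) and again under IL17 (-1.34 and -1.06), and Slc27a6, the family member of heart muscle, was higher with si-IAMP-1 (0.97). Fabp7, the fatty acid binding protein of brain, was lower with si-IAMP-2 (-0.85). IL17 without knockdown was followed by a lower level of G0s2, the inhibitor of the Pnpla2 lipase (-1.23), and a higher level of Gpat3, an acyltransferase of triglyceride synthesis (0.55). Under TGF-β Lpin1, a phosphatidate phosphatase, rose (1.56), and 12 of 24 rose and 6 fell in all (28.0% and 27.5% of all genes).

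Of 13 cofactors of the PPARs and PGC-1 proteins, 2 were higher and 5 lower with si-IAMP-1 in untreated cells, and 3 higher and 5 lower with si-IAMP-2, where 39.9% and 49.3% of all genes were called in either direction. Esrrg, an orphan nuclear receptor that drives oxidative genes in heart, was lower with each siRNA under IL17 (-1.32 and -2.24) and under TGF-β (-0.90 and -1.29). It was scarce, with 21 to 40 estimated counts in the si-IAMP-2 libraries under IL17 and 32 to 42 under TGF-β, near the floor of 18. Nrip1, a corepressor of oxidative metabolism, rose with si-IAMP-2 in untreated cells (0.72) and with each siRNA under TGF-β (0.54 and 0.38). TGF-β was followed by a rise of Klf15 (1.08), a factor that promotes lipid use in the heart, and a fall of the deacetylase Sirt1 (-0.84). In hearts none of the 13 was called by edgeR, and 1 had an unadjusted p under 0.05. Klf15 was at 70.0 to 80.4 CPM in Het and 84.4 to 92.9 CPM in KO hearts, without overlap, where 2.37% of all genes tested did not overlap in either direction.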
